A study of Eriocheir sinensis with 6 samples.

Results

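Strong regions of open chromatin that were listed in 1 of 3 libraries were examined in the muscle of the Chinese mitten crab, Eriocheir sinensis. Overlapping peaks of the 3 ATAC-seq lists were merged, which gave 85139 regions. Regions were selected on the peak lists and their q values: a region was kept when all of its peaks came from 1 list, its highest −log10 q was at least 5, and it lay on a placed sequence of the assembly (a sequence with a CM name, with CM024137.1 taken only up to 18 Mb). The q value is the false discovery rate that the peak caller gives a peak, so that 5 on the −log10 scale is a stringent value. Of the 63648 regions within these sequence limits, 9353 (14.7%) met the rule, and they are called strong one-library regions here. A further 23744 regions came from 1 library with a lower −log10 q (weaker one-library regions), 13074 came from 2 libraries and 17477 from all 3 (shared regions).

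The study followed muscle through the molt cycle, and the data analysed here are those of the inter-molt stage, between molts. According to the labels and the methods, the 3 crabs were healthy wild-type juveniles, untreated and at the same stage, and each walking-leg muscle sample came from 1 crab and was divided between ATAC-seq and RNA-seq. There were therefore 3 ATAC and 3 RNA libraries, numbered here by crab, with no second group of animals and no technical repeat. The files pair no gene model with a name, so the tissue could not be checked against muscle marker genes, and bulk muscle can hold nerve, blood and connective cells as well as fibers.

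In ATAC-seq, a transposase inserts sequencing adapters where DNA is not wrapped tightly in nucleosomes, and a peak is a place where such insertions pile up above the local background. Promoters of active genes and distal enhancers are the best known classes of open region. Promoters of broadly used genes tend to be open in many samples, while distal elements differ more between cell types and individuals. A peak list has a cut-off, however, and a region without a listed peak in a library is not thereby closed in that library.

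The lists held 57320, 49574 and 56919 peaks for crabs 1, 2 and 3. The number of mapped reads is not given. Pileup (the peak caller's count over a summit) and local background were solved from fold enrichment and p value instead. This worked for over 99.9% of summits on placed sequences. Both are written here as fragments, though whether the caller counted fragments or single reads is not given. The lowest background the caller used, which scales with depth, was 3.94, 3.44 and 3.49 fragments, and the lowest pileup listed at that background was 11, 10 and 10. The shared regions had median fold enrichments of 4.20, 3.99 and 5.07, so that peaks stood highest over background in the crab 3 library. Reads recovered for genes came to 6772294, 7391379 and 7920094 in the RNA of crabs 1, 2 and 3.

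The strong one-library regions were not spread evenly over the crabs. Crab 1 had 2549 of them (27.3%), crab 2 had 1743 (18.6%) and crab 3 had 5061 (54.1%). They made up 21.8% of the one-library regions of crab 1, 22.6% of those of crab 2 and 37.0% of those of crab 3. As a share of all regions of a library they were 6.54% in crab 1, 5.60% in crab 2 and 12.2% in crab 3. Crab 3 thus had the most on each of these scales, and crabs 1 and 2 were close to each other on the last 2. The q value chose the regions, and these counts are a description with no test.

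Crab 3 had a larger share the higher the −log10 q, which is the value the rule selected on. It held 47.5% of the 4550 regions with a −log10 q from 5 to 7, 56.3% of the 2725 from 7 to 10, 65.6% of the 1778 from 10 to 20, and 67.0% of the 300 regions at 20 or above. Over the same classes the median background, relative to the lowest of the library, rose from 1.22 to 1.60. By fold enrichment the share did not grow. Of the 40 regions with a fold enrichment of at least 10, crab 3 had 19, under its share of all strong regions (54.1%). Most regions were only moderately strong, with 77.8% below a −log10 q of 10. Just inside the threshold, 1700 regions had a −log10 q under 5.5 and a median fold enrichment of 3.82. Just outside it, 2067 regions had a −log10 q from 4.5 to 5 and a median fold enrichment of 3.65. The lowest value inside was 5.001 and the highest outside 4.998, so the threshold divides a continuous range.

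The cut-off on q limits how low the enrichment and pileup of these regions could be. Within that limit, fold enrichment differed little between the crabs. Its median was 3.85 in crab 1, 4.29 in crab 2 and 4.01 in crab 3, and its highest value was 17.5, 19.5 and 18.03. An enrichment of 10 or more was reached by 9, 12 and 19 regions. The summits held a median of 24, 21 and 26 fragments, with a lowest pileup of 18, 17 and 17. The regions were short, with a median width of 264 bases against 655 bases for shared regions, and 8.13% were at least 500 bases wide against 68.6% of shared regions.

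The peak caller's own limits bear on how much enrichment the other libraries could have had without a listed peak. At the lowest background, the smallest fold enrichment listed was 2.40, 2.44 and 2.42. Of the strong one-library regions, at any background, 1782 (19.1%) had at least 2 times the highest of these values. The others stood closer to the level at which a region of lowest background may go unlisted. That level belongs to the lowest background alone. At higher backgrounds smaller enrichments were listed, down to 1.505 among the strong regions of crab 3, so the 19.1% is no measure of distance from the limit there. Regions at that lowest background made up 36.8%, 54.6% and 24.2% of those of crabs 1, 2 and 3, and a background of at least 5 times the lowest was found at 99, 15 and 446 of them. Reads of the other libraries at these places were not analysed here.

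The 5 regions with the highest −log10 q in each library show the upper end. In crab 1, the first was a region of 335 bases on CM024107.1, from 3688650 to 3688984, with a −log10 q of 152, a fold enrichment of 17.5 and a background of 9.14 fragments. It lay within the gene model evm.TU.CM024107.1.191 and 2.31 kb from the nearest region with a peak of another library. The gene had an expression level of 42.8, 40.0 and 74.8 FPKM (fragments scaled to exon length and library size) in crabs 1, 2 and 3. The crab with the region was thus between the others, close to crab 2. The next in crab 1 lay on CM024160.1, from 13400929 to 13401251, at a fold enrichment of 15.6 and 183 kb from the nearest gene model. The fifth, on CM024113.1 from 6212855 to 6213105 with a fold enrichment of 12.6, lay within evm.TU.CM024113.1.223, which had 12, 26 and 1 reads in the 3 crabs.

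In crab 2, the strongest region lay between genes on CM024121.1, from 5192811 to 5193230. Its −log10 q was 137, its pileup 149 and its fold enrichment 19.5, the highest of all 9353 regions. The nearest gene model, evm.TU.CM024121.1.113, was 5.69 kb away and the nearest shared region 215 kb away. The second, on CM024125.1 from 6617763 to 6618268, had a fold enrichment of 14.2 and lay 6.03 kb from a shared region. The third, on CM024118.1 from 11366593 to 11366871, had a fold enrichment of 14.6 and a peak of another library only 262 bases away. Of the 5 strongest in crab 2, the one inside a gene model lay on CM024113.1, from 3228885 to 3229176, in a gene locus added by the authors (3214594 to 3230770) that had 1 read in crab 1 and none in crabs 2 and 3.

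In crab 3, the strongest region lay on CM024162.1, from 10694518 to 10694833, with a −log10 q of 80.4, a fold enrichment of 18.03 and a pileup of 87. It was 62.2 kb from the nearest gene model and 27.3 kb from the nearest shared region. The second, on CM024114.1 from 7501457 to 7501774, was the only one of these 15 regions at a promoter. Its fold enrichment was 10.9, and it lay within 2 kb of the starts of 3 models, evm.TU.CM024114.1.223 and 2 loci added by the authors downstream of it. The FPKM of evm.TU.CM024114.1.223 was 18.6, 9.13 and 15.9 in crabs 1, 2 and 3, that of the added locus from 7501295 was 6.86, 4.05 and 9.35, and that of the added locus from 7503011 was 3.51, 3.03 and 2.34. On the deposited scale crab 3 thus took a different rank in each model, while with FPKM recomputed on plain read totals (the reads recovered from the table, in place of the library size the authors used) it was lowest in all 3, at 7.81, 4.59 and 1.15. The fifth region of crab 3, on CM024141.1 from 1895978 to 1896281, differed from the rest in its high background of 24.0 fragments, over which 139 fragments gave a fold enrichment of 5.59. A shared region lay 967 bases away.

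Nearly as many strong regions lay between genes as in and around them. At a promoter, taken as up to 2 kb from the start of a gene on both sides, lay 1618 (17.3%), while 3076 (32.9%) lay elsewhere in gene models and 4659 (49.8%) between genes. The promoter share was 15.9% in crab 1, 11.1% in crab 2 and 20.1% in crab 3, with a mean of 15.7% ± 4.504 (SD, n = 3 libraries). Crab 2 was lowest and crab 3 highest.

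**Figure D1:**
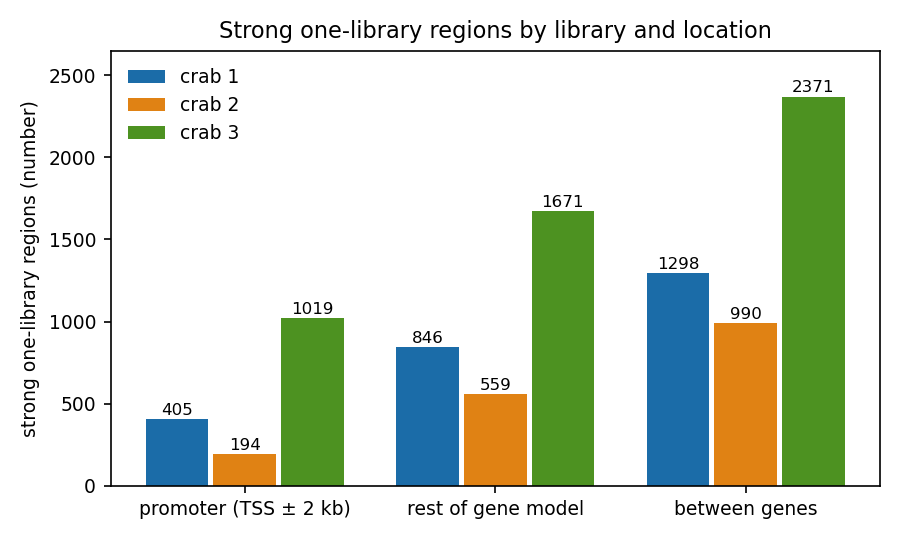
Number of strong one-library regions (vertical axis) at promoters, in the rest of gene models and between genes, with 1 bar per crab. In each crab the largest number lay between genes (1298, 990 and 2371) and fewest at promoters (405, 194 and 1019), and crab 3 had the most in all 3 locations.

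The weaker one-library regions of the same libraries had promoter shares of 16.9%, 14.7% and 19.3%. The difference within a library was −0.978 percentage points in crab 1, −3.56 in crab 2 and 0.809 in crab 3, with a mean of −1.24 ± 2.19 (SD, n = 3). The exact sign-flip test over the 3 libraries, two-sided, gave p = 0.5, and the smallest p this design allows is 0.25. The mean changed sign to 0.0585 when crab 1 was left out. Between genes, the strong regions had the higher share in all 3 crabs, by 3.12, 4.69 and 0.712 points, with a mean of 2.84 ± 2.01 (SD, n = 3) and p = 0.25 in the same exact test. As a description, promoters held 22.7% of the regions of 2 libraries and 31.4% of the shared regions, so that the share was higher the more libraries a region had.

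The 300 regions with a −log10 q of at least 20 had 11.3% at promoters and 56.3% between genes. In the lower strength classes the promoter share was 17.5%, 17.0% and 18.3%. The strongest regions thus had the lowest promoter share of the 4 classes, a difference for which no test over libraries was made.

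The distance to the nearest shared region was shorter for strong than for weaker one-library regions in each crab, by an amount that the test over 3 libraries cannot call. The median distance to the nearest shared region was 13.7 kb in crab 1, 19.3 kb in crab 2 and 10.4 kb in crab 3, against 17.0, 21.8 and 17.2 kb for the weaker one-library regions. On the log10 scale the difference was −0.093 for crab 1, −0.052 for crab 2 and −0.22 for crab 3, with a mean of −0.12 ± 0.0857 (SD, n = 3). All 3 crabs had the same direction, and the exact sign-flip test gave p = 0.25, the smallest it can give.

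**Figure D2:**
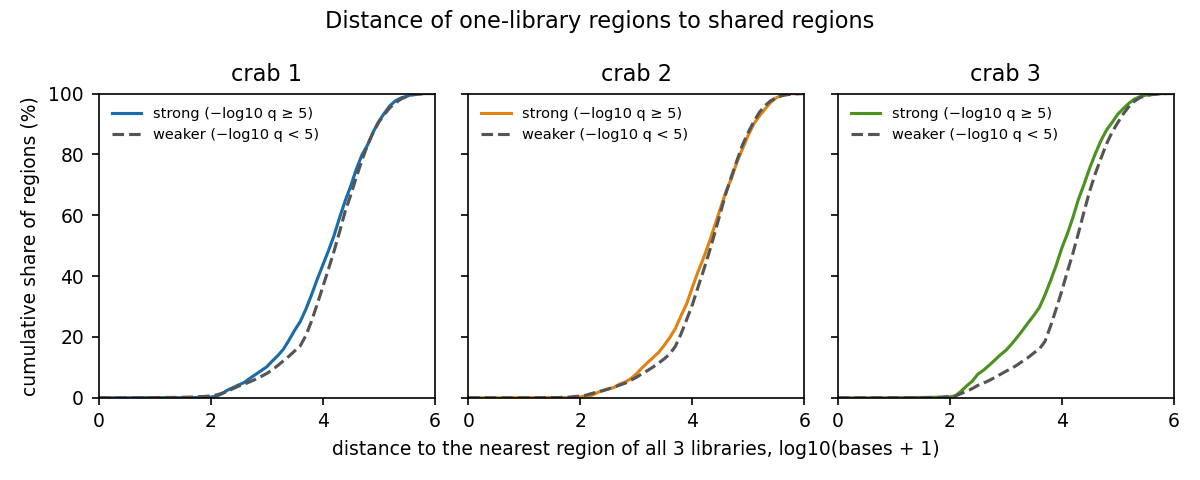
Cumulative share of one-library regions (vertical axis, %) by distance to the nearest shared region (horizontal axis, log10 of bases + 1), with 1 panel per crab, a solid line for strong and a dashed line for weaker regions. The solid line lies above the dashed one over most of the range in crabs 1 and 3. In crab 2 the lines cross, with 86.3% of strong and 87.2% of weaker regions within 100 kb. The gap is widest in crab 3, where 33.7% of strong and 18.5% of weaker regions lay within 5 kb.

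The gap was seen mostly at short range. Within 5 kb of a shared region lay 29.0% of the strong regions of crab 1, 22.8% of those of crab 2 and 33.7% of those of crab 3, against 20.5%, 17.0% and 18.5% of the weaker regions. Within 1 kb the shares were 10.2%, 7.80% and 15.6% for strong regions and 7.99%, 6.71% and 8.69% for weaker ones. Crab 3 had the highest share of strong regions at both distances. At the other end, 818 strong regions lay more than 100 kb from any shared region, 235 of crab 1, 239 of crab 2 and 344 of crab 3. Within 100 kb lay 90.8%, 86.3% and 93.2% of the strong regions, against 90.5%, 87.2% and 90.4% of the weaker ones. At this distance crab 1 thus had nearly equal shares, and in crab 2 the strong regions had the lower share. The nearest region with a peak of another library, shared or not, was a median of 3.41, 4.87 and 2.95 kb away. In all, 1727 strong regions (18.5%) lay within 500 bases of a region with a peak of another library, a distance under the median width of a shared region.

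Strong regions of the same library also stood near each other, most often in crab 3. Another strong one-library region of the same library lay within 10 kb of 337 regions of crab 1 (13.2%), 170 of crab 2 (9.75%) and 1189 of crab 3 (23.5%). Their order was that of the number of regions per library, and the part of that number in these shares was not tested. A strong region of another library lay within 10 kb of 20.6%, 19.2% and 12.8%. In crabs 1 and 2 neighbours from another library were thus the more frequent, and in crab 3 neighbours from the same library. Since crab 3 held 54.1% of all strong regions, the numbers of possible neighbours differed in the same way. The shares were not corrected for these numbers, so they do not tell whether regions of a library cluster with each other.

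Chains of at least 2 regions of 1 library, with gaps of at most 10 kb, numbered 158 in crab 1, 81 in crab 2 and 539 in crab 3. Chains of at least 3 regions numbered 14, 8 and 90, and chains of at least 4 numbered 5, 0 and 20. The longest chain had 6 regions, all of crab 1, on CM024104.1 from 131391 to 141463. It overlapped no gene model, held 3 regions of several libraries between its members, and had fold enrichments of only 2.06 to 2.83 over a background of 30.8 to 49.1 fragments, far above the lowest background of that library. The next, with 5 regions of crab 3 on CM024148.1 from 1854332 to 1873096, overlapped evm.TU.CM024148.1.48 and evm.TU.CM024148.1.49 and held 4 regions of several libraries between its members. Chains of exactly 4 regions numbered 4 in crab 1 and 19 in crab 3. Those named here were the ones with the highest −log10 q, and all were of crab 3. They lay on CM024137.1 from 4869674 to 4887228, on CM024153.1 from 1313594 to 1327528 and on CM024146.1 from 22752560 to 22763855. Their fold enrichments ran from 2.69 to 4.98 over backgrounds of 10.9 to 20.8 fragments, so these chains too lay in places of raised background.

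Strong one-library regions were found on all 72 placed sequences, at a median of 8.16 per Mb and between 5.24 and 20.5 per Mb. Crab 3 had more of them than either other crab on 65 of the 72 sequences, and its share ran from 13.6% to 72% with a median of 56.7%. The lowest value stood apart, since the second lowest was 34.0%. It belonged to CM024130.1, which was singled out after its values were seen. There, crab 1 had 110 regions (57.6%), crab 2 had 55 (28.8%) and crab 3 had 26 (13.6%). The sequence was rich in regions, with 15.6 strong one-library regions per Mb and 422 shared regions.

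On CM024130.1 the shared regions of crab 3 were not raised over those of the others. Their median fold enrichment there was 4.22 in crab 1, 4.05 in crab 2 and 4.01 in crab 3, while over all placed sequences it was 4.20, 3.99 and 5.07. As a median within regions, crab 3 stood above crab 1 by 0.27 on the log2 scale over all placed sequences and by −0.021 on CM024130.1. Across the 72 sequences, the share of crab 3 and this log2 difference had a Spearman correlation of 0.744, and of 0.733 without CM024130.1. This is a description over sequences that share the same 3 libraries. Without CM024130.1, crab 3 held 55.0% of 9162 strong one-library regions, close to the 54.1% with it.

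**Figure D3:**
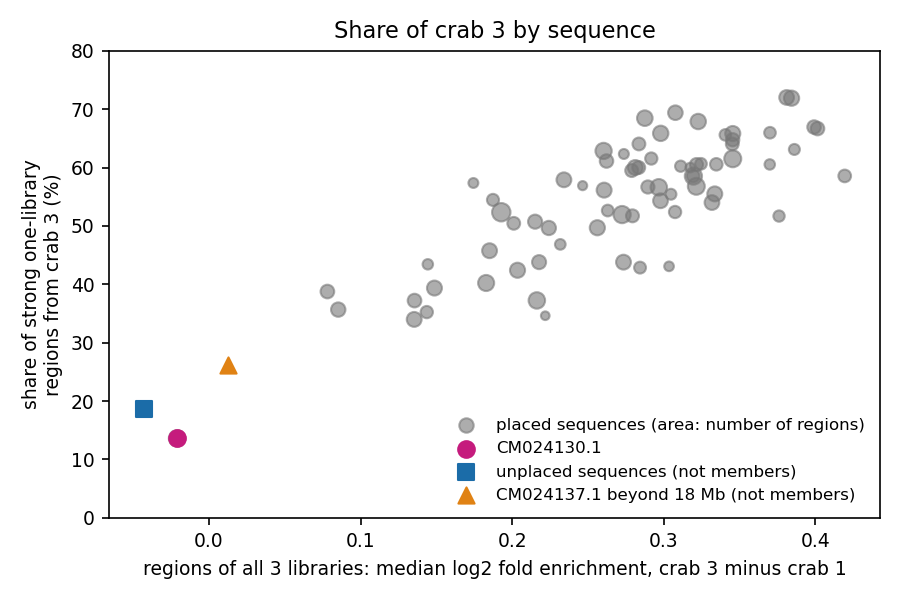
Share of strong one-library regions that came from crab 3 (vertical axis, %) against the median log2 fold enrichment of shared regions in crab 3 minus crab 1 (horizontal axis), with 1 circle per placed sequence and circle area by number of regions. CM024130.1 lies at the lower left with 13.6% and −0.021, near the square for unplaced sequences (18.7%) and the triangle for CM024137.1 beyond 18 Mb (26.1%), which are outside the rule.

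The density of strong one-library regions followed that of shared regions, with a Spearman correlation of 0.783 between the 2 densities per Mb over the 72 sequences. The points share the same libraries and assembly, and this too is a description.

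The regions met 3795 gene models at the promoter or in the body, 14.0% of the 27188 models within the sequence limits, and 1785 of them at the promoter. Most of these models (2963) had 1 such region and 64 had at least 5. Overlapped models were longer than the rest, with a median span of 17.7 kb against 5.87 kb over all models. Fewer of them lacked reads. Their median of mean FPKM was 1.91 against 0.627 over all models, 613 (16.2%) had no read in any library against 27.6% of all models, and 31.1% had a shared region at their promoter against 21.1%. These figures are descriptions, and gene span, which moves with them, was not separated from them.

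The genes with the most strong one-library regions were long ones. A locus added by the authors on CM024126.1, from 603571 to 1267959, had 13, of which 9 came from crab 1, 3 from crab 2 and 1 from crab 3. Its FPKM was 0.742, 1.05 and 0.894, with no more than 17 reads in a library. Another added locus, on CM024113.1 from 7153423 to 7805563, had 11, with 3, 6 and 2 from crabs 1, 2 and 3. Its FPKM was 2.76, 2.54 and 1.09. The rank of the crab with the most regions depended on the scaling: on plain read totals the first locus had 0.770, 1.33 and 0.439 and the second 2.87, 3.24 and 0.537, so that crab 1 went from lowest to middle in the first and crab 2 from middle to highest in the second.

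Each of the other models named by this count had 10 regions. In evm.TU.CM024132.1.147_evm.TU.CM024132.1.148, 2 came from crab 2 and 8 from crab 3, and the FPKM was 63.6, 33.8 and 16.2. Here the crab with the most regions had the lowest level. In evm.TU.CM024142.1.374, 2 came from crab 1, 1 from crab 2 and 7 from crab 3, with an FPKM of 46.0, 39.5 and 31.0. In evm.TU.CM024146.1.329, 3 came from crab 1, 2 from crab 2 and 5 from crab 3, with an FPKM of 1.75, 2.24 and 0.274. In all 3 of these models crab 3 had the most regions and the lowest FPKM.

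Whether a gene was expressed more in the crab that had the region was asked by comparing each gene's log2(FPKM + 1) in that crab with the mean of the other 2. In bulk muscle, fewer cells of a type and less RNA per cell cannot be told apart. Of the overlapped models, 3317 had regions of 1 library (868 of crab 1, 532 of crab 2 and 1917 of crab 3) and 478 had regions of several. A mean FPKM of at least 1 was required, which 459, 185 and 1259 of the one-library models passed. Of these, 25, 6 and 37 passed only with the crab that had the region, since the mean of the other crabs was under 1. The median difference, relative to that of all 12149 genes tested, came to 0.12 for crab 1, 0.027 for crab 2 and 0.075 for crab 3.

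The mean of these 3 values was 0.076 on the log2 scale, positive in 3 of 3 crabs. It includes the genes that passed the filter only through the crab with the region, and with no filter on FPKM it was 0.047 (exact permutation p = 0.167). Over the 6 ways to pair the RNA with the ATAC libraries, the pairing by crab gave the highest value, and the others ran from −0.040 to 0.052. The exact permutation test over pairings, two-sided, gave p = 0.167, the smallest that 6 pairings allow, so this design cannot reach 0.05. For genes with the region at the promoter the values were 0.097, 0.039 and 0.20, with a mean of 0.11 and the same p of 0.167 in the exact test. A median difference of 0.076 is small beside the differences between crabs for single genes.

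**Figure D4:**
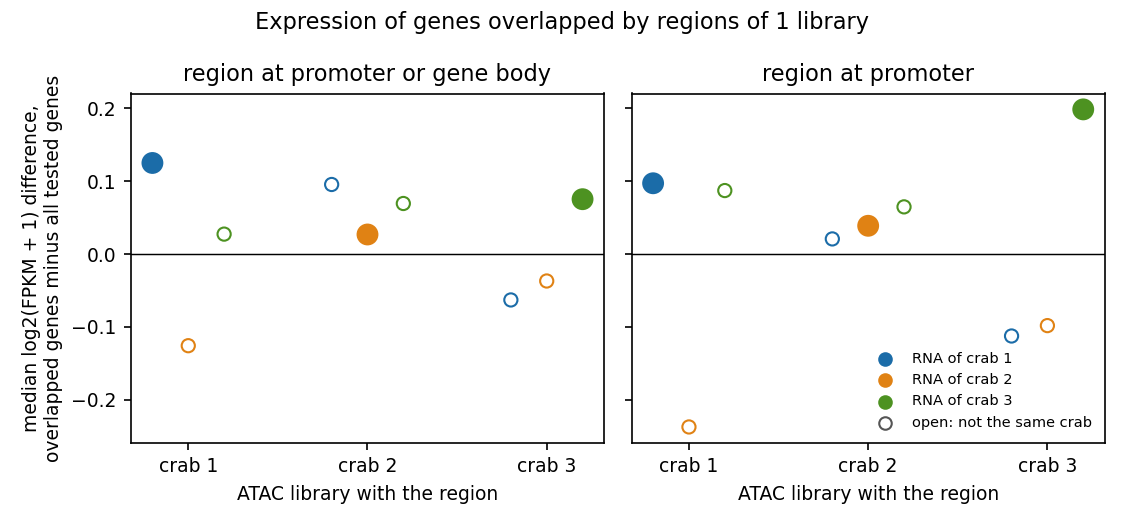
Median difference in log2(FPKM + 1) between 1 crab and the mean of the others, for genes overlapped by strong regions of 1 ATAC library minus the same median over all tested genes (vertical axis), by the ATAC library with the region (horizontal axis) and the crab whose RNA was taken (colour). Filled circles mark the same crab in both assays and are all above 0 (0.12, 0.027 and 0.075 in the left panel, 0.097, 0.039 and 0.20 for promoters in the right panel).

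Single genes were counted as higher or lower by the size of the difference. With a difference of at least 1 on the log2 scale, 55 of the 459 genes of crab 1 (11.98%) were higher in that crab, against 8.55% of all genes tested. In crab 2, 13 of 185 (7.03%) were higher, against 7.56% of all. In crab 3, 268 of 1259 (21.3%) were higher, against 19.9% of all. Lower in the crab with the region were 31 genes in crab 1 (6.75%, against 9.54% of all), 21 in crab 2 (11.4%, against 9.77%) and 226 in crab 3 (17.95%, against 20.2%). The split between higher and lower depended on the library size used. Plain read totals shifted the median log2 level of all genes tested by 0.045, 0.30 and −0.77 in crabs 1, 2 and 3. On that scale 94 genes of crab 1 were higher (20.5%, against 13.8% of all) and 17 lower (3.70%, against 4.99%). In crab 2, 58 were higher (31.4%, against 28.9%) and 9 lower (4.86%, against 1.97%). In crab 3, 65 were higher (5.16%, against 4.56%) and 614 lower (48.8%, against 49.7%). On both scales the share of higher genes was above that of all genes in crab 1, and in crab 3 it was close to it. In crab 2 the share of higher genes was just under that of all genes on the deposited scale and above it on plain read totals. The lower genes of crab 2 were few, 21 and 9 of 185, with shares above that of all genes on both scales. The counts include the 25, 6 and 37 genes that passed the FPKM filter only through the crab with the region. On the deposited scale such genes could appear only as higher. No test of these counts was made.

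The genes with the largest differences went both ways. For crab 3, all 4 were higher in the crab with the region, but the first of them passed the FPKM filter only through crab 3 and so could appear only as higher. The model evm.TU.CM024119.1.518 had no read in crabs 1 and 2 and an FPKM of 73.0 in crab 3, from 161 reads. Taking 3 reads as the floor of each library, this is at least 97.0-fold higher, and at least 45.9-fold on plain read totals. Its region, with a fold enrichment of 4.23, lay on CM024119.1 from 19916971 to 19917199, just beyond the start of this model on the minus strand.

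The second, evm.TU.CM024136.1.290, had an FPKM of 132, 519 and 8652, with a region of fold enrichment 2.79 at 11559923 to 11560173 on CM024136.1. The third, evm.TU.CM024120.1.320, had an FPKM of 7.86, 2.18 and 120, with a region of fold enrichment 3.06 that met its start. The fourth, evm.TU.CM024164.1.276, had an FPKM of 72.6, 120 and 1336, with a region of fold enrichment 4.39. In these 4 genes crab 3 was far above both others. The regions themselves were of modest strength, with a −log10 q of 5.12 to 7.54.

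For crab 2, all 4 genes were lower in the crab with the region. The model evm.TU.CM024123.1.90 had an FPKM of 3.61, 0 and 11.3 in crabs 1, 2 and 3, from 15, 0 and 26 reads. Its neighbour evm.TU.CM024123.1.91, which meets the same region, had 4.39, 0.583 and 8.47, so the 2 models count 1 region. The model evm.TU.CM024123.1.140 had an FPKM of 0.153, 0 and 19.4, from 1, 0 and 70 reads, so that crab 1 was nearly as low as crab 2 and crab 3 stood above both. This model passed the FPKM filter only through crab 3, so its direction in crab 2 was not free of the filter. The fourth, a locus added by the authors on CM024129.1 from 5166952 to 5204437, had an FPKM of 8.07, 2.77 and 39.1, with a stronger region at a −log10 q of 20.4.

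For crab 1, 3 of the 4 were higher, of which the last 2 passed the FPKM filter only through crab 1, which fixed their direction. The model evm.TU.CM024134.1.381 had an FPKM of 33.6, 2.54 and 6.87. The model evm.TU.CM024158.1.178 had 6.37, 0.865 and 0, from 22, 4 and 0 reads. An added locus on CM024160.1, from 17385594 to 17415959, had 3.90, 0.257 and 0, from 34, 3 and 0 reads. The exception was evm.TU.CM024167.1.388, with 22.5, 79.9 and 204, where crab 1 was lowest.

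**Figure D5:**
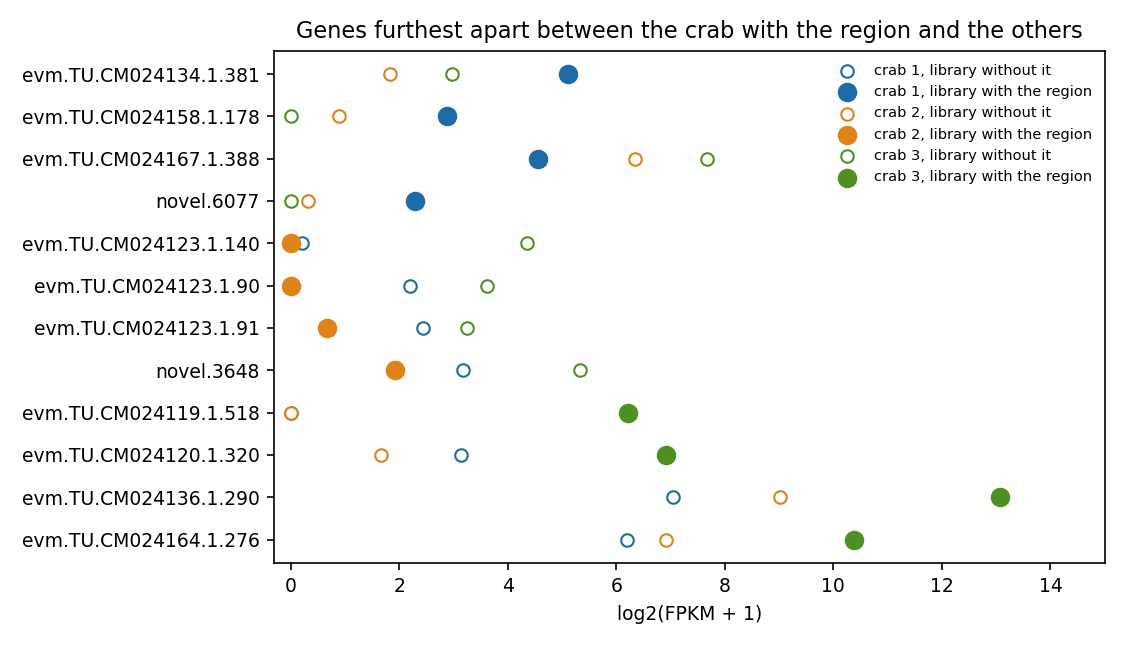
Expression of 12 gene models in the 3 crabs (horizontal axis, log2 of FPKM + 1), the 4 per library that lay furthest apart, with a filled circle for the crab whose ATAC library had the strong region and open circles for the others. The filled circle is to the right of both others in 7 models (3 of crab 1 and 4 of crab 3) and to the left in 5 (1 of crab 1 and 4 of crab 2).

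The most abundant transcripts with such a region did not follow one direction either. In crab 3, evm.TU.CM024112.1.203 had an FPKM of 38355, 24448 and 218823, but its region had a fold enrichment of only 1.505 at a −log10 q of 5.46. The model evm.TU.CM024117.1.149 and an added locus on CM024101.1, from 9451358 to 9529814, were also highest in crab 3, the first with an FPKM of 54258, 49923 and 100513 and the second with 28171, 21345 and 56605. When the FPKM was recomputed on plain read totals, that added locus had 29242, 27198 and 27786, so that its lead in crab 3 was lost. The same holds for evm.TU.CM024117.1.149, which had 56321, 63610 and 49338 on that scale. The library size behind the deposited FPKM was 1.04, 1.27 and 0.491 times the reads recovered for crabs 1, 2 and 3. Relative to plain read totals, this raises the FPKM of crab 3 by the same factor for every gene.

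In crab 1, evm.TU.CM024102.1.206 had an FPKM of 28034, 22111 and 44328, evm.TU.CM024107.1.221 had 14147, 10834 and 55486, and evm.TU.CM024113.1.178 had 15476, 12509 and 14657. Crab 1, which had the region, was highest in the last of these, and on plain read totals also in the first (29100, 28173 and 21759). In crab 2, evm.TU.CM024130.1.45 had an FPKM of 1132, 820 and 4355, evm.TU.CM024160.1.533 had 639, 593 and 2840, and evm.TU.CM024114.1.277 had 351, 313.8 and 141. Crab 2 was highest in none of them on the deposited scale, and on plain read totals it was highest in the last (365, 399.8 and 69.2).

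Of 11 receptor and candidate genes taken from the study, 3 met a strong one-library region. G protein-coupled receptors carry hormone and transmitter signals across the cell membrane. The model named moody (evm.TU.CM024100.1.415), whose fly namesake acts in the glial blood-brain barrier, had 5 regions, 4 from crab 3 and 1 from crab 1, all in the gene body between 5.67 and 37.3 kb from its start. Its FPKM was 23.6, 14.7 and 11.7, so that the crab with the most regions was lowest. The model named gpr161 (evm.TU.CM024164.1.176), whose mammalian namesake restrains Hedgehog signaling, had 1 region of crab 3 with a fold enrichment of 5.02, and its FPKM was 1.39, 1.51 and 0.740. The model named HTR4 (evm.TU.CM024104.1.157), a serotonin receptor by name, had 1 region of crab 3 with a fold enrichment of 4.46 and no more than 3 reads in any library. Of the 898 genes within the limits on the study's lists of genes that changed in both assays between molt stages, 261 (29.1%) met a strong one-library region, against 14.0% of all models. The listed genes had a median span of 13.5 kb, and the lists rest in part on these samples, so this is no independent evidence.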

How the data were processed

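Muscle of 3 inter-molt crabs was measured by ATAC-seq and RNA-seq. The authors aligned ATAC reads with BWA, filtered them (mapping quality, proper pairs) and called peaks in each library separately with MACS2, with duplicate reads kept. The deposited lists give fold enrichment (a ratio of pileup to local background), a −log10 p-value, a −log10 q-value and an integer score per peak. The RNA reads were aligned with HISAT2 (version 2.0.5) and counted with featureCounts (version 1.5.0-p3), per the labels and methods, and the authors deposited FPKM per gene. FPKM times gene length was a whole multiple of 1 step in each library, which gave the reads. The assembly is a public reference genome of this species that the authors obtained from NCBI, and its sequence was not used here.

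Peaks overlapping by at least 1 base were merged, and each region was set as promoter (2 kb on either side of a start), gene or intergenic, in that order. Named regions were the 5 with the highest −log10 q per library and the 5 chains with the most regions, with ties ordered by the highest −log10 q. Named genes were those met by these regions, the 4 per library with the largest difference, the 3 with the highest mean FPKM, the 5 with the most regions and the study's named receptors. Regions and lists were chosen with earlier results of these data known. The thresholds of a fold enrichment of 10, a −log10 q of 20, 500 bases, 5 times the lowest background and the 2% tolerance on that background were set after the data were seen. Libraries of the same number were taken as 1 crab, from the sample record. Peak names in the third ATAC list carry the number 7, so the pairing of crab 3 rests on that record. The steps were written in Python 3.11.15 (scipy 1.17.1, pandas 2.3.3, numpy 2.4.6) and tested on simulated data. Alternatives were the q threshold, merging distance, promoter width, definition of shared, chain gap, pseudocount, FPKM filter, plain read totals, all sequences, no replicate block, and each crab left out.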

Additional observations from a re-analysis of the deposited data

Results flagged for a closer look

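Outside the sequence limits, unplaced sequences held 2111 regions that came from 1 library with a −log10 q of at least 5, and CM024137.1 beyond 18 Mb held 199. These regions are outside the rule, and the report shows them only beside the placed sequences, as a description. On unplaced sequences 996 came from crab 1, 720 from crab 2 and 395 from crab 3 (18.7%), an order opposite to that on placed sequences, and shared regions there stood at a median log2 fold enrichment of −0.043 in crab 3 relative to crab 1. On CM024137.1 beyond 18 Mb the counts were 65, 82 and 52, and the difference was 0.013. The contrast with placed sequences was picked after its values were seen, and no test of it was made.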

How the results depend on the processing

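With a −log10 q of at least 3, crabs 1, 2 and 3 had 6246, 3982 and 9090 regions, and at 10 they had 385, 326 and 1367, with crab 3 highest each time. Leaving out each crab in turn, crab 1 had 3700 to 6072, crab 2 had 2753 to 3068 and crab 3 had 7015 to 9476, since a region of 2 libraries then counts as one of 1 library. The promoter share, a mean over crabs of 15.7%, was 10.5% with 1 kb and ran from 17.0% to 18.1% with a crab left out, and its difference from weaker regions ran from −1.93 to 0.0585 points, reversed without crab 1. The mean distance to a shared region, 14.48 kb, was 7.16 kb when 2 libraries made a region shared and 7.64 to 11.0 kb with a crab left out, and its log10 difference stayed negative over all alternatives run (−0.157 to −0.085, the latter with peaks merged within 500 bases). The mean share with a neighbour of the same library, 15.5%, was 22.9% at a −log10 q of 3, 4.71% at 10, 40.5% within 50 kb, and 20.5% to 26.7% with a crab left out.

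The expression value of 0.076 stayed positive under all alternatives run. With a −log10 q of at least 10 it was 0.069 (exact permutation p = 0.333). With no replicate block, comparing levels rather than differences within genes, it was 0.043 (exact permutation p = 0.667), against p = 0.167 with the pairing by crab. With no filter on FPKM it was 0.047 (exact p = 0.167), on plain read totals it was 0.051 (exact p = 0.333), and with a crab left out it was 0.022 to 0.052 with no test. Of 26 named genes, 25 moved by less than the spread between crabs on plain totals and 22 with a pseudocount of 0.1, and none with a difference of at least 1 changed sign. On plain totals 2 genes with smaller differences (up to 0.35 in size) did, evm.TU.CM024113.1.223 from 0.22 to −0.056 and evm.TU.CM024164.1.176 from −0.35 to 0.022. Chosen after the data were seen, the crab 3 share was 55.0% without CM024130.1 and 18.7% on unplaced sequences alone. With 3 animals, no sign-flip test can go below 0.25.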
